A study of Homo sapiens with 3 samples.

Results

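Genes of homologous recombination and of the Fanconi anaemia pathway were followed after knockdown of WDR5 in UM-UC-3, a line of human bladder cancer cells. A list of 38 genes was taken by name, and a probe set belonged to a gene when that gene was its only symbol in the array annotation. For 34 of the 38 genes there were 83 such probe sets among the 49293 of the array. BRCA2, FANCA, FANCD2 and RBBP8 were not analysed here. A probe set is a group of short oligonucleotides that report 1 transcript region, and some genes have more than 1. Kept were those whose mean log2 value over the 3 arrays reached the median of the whole array, an intensity of 152. This left 55 probe sets of 30 genes. FANCM, BRIP1, ATRIP and TONSL had dimmer probe sets alone and are described separately.

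Homologous recombination repairs a broken chromosome by copying the sister chromatid. Nucleases first resect the broken end, and BRCA1, BARD1, PALB2 and BRCA2 then prepare the single strand for the search for its partner, in which the RAD54 motors also act. The Fanconi pathway repairs links between the strands of DNA, such as those left by cisplatin, a drug used against bladder cancer. Its core complex, with the ubiquitin-conjugating enzyme UBE2T, attaches ubiquitin to FANCD2 and FANCI, and recombination completes the repair. The kinases ATM and ATR signal the damage. Many of these genes are known as genes of S phase in dividing human cells.

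The cells had been transfected for 48 h with 75 nM of a control siRNA or of one of 2 siRNAs against WDR5, named si-WDR5-2 and si-WDR5-3. WDR5 is a WD repeat protein of the MLL/SET1 complexes, which methylate lysine 4 of histone H3. There was 1 Affymetrix PrimeView array for each siRNA. Without replicates, how far cultures of the same kind differ is not known, and the ratios carry no error between cultures. The labels place the target of si-WDR5-2 at position 999 and that of si-WDR5-3 at position 585 of the WDR5 coding sequence. The 3 siRNAs, whose sequences are shown because they alone distinguish the conditions, are 21 bases long, and the capitals mark the 2 bases at the 3′ end that overhang:
control siRNA: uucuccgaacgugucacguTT
si-WDR5-2: gcucagaggauaaccuuguTT
si-WDR5-3: cccaguccaaccuuauuguTT

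WDR5 itself read 979 on the control array, 211 after si-WDR5-2 and 311 after si-WDR5-3. Both knockdown arrays thus lay far below the control, at 0.215 and 0.317 times its level. The median intensity of the arrays was 151, 149.9 and 151, in the same order. The 7 reference genes ranged from 0.856 to 1.41 times the control with si-WDR5-2 and from 0.771 to 1.35 times with si-WDR5-3, with ACTB the highest on both. Of 9 urothelial markers 5 passed the filter, from UPK3B at 167 to UPK1B at 235 and KRT5 at 276 with control siRNA, and UPK2, GATA3, PPARG and KRT20 did not, at 139 to 85.8. Of 6 epithelial markers KRT18 was at 1708, KRT8 and KRT7 were at 176 and 166, and KRT19, CDH1 and EPCAM were below the filter at 121 to 61.4. The mesenchymal markers VIM, CDH2 and FN1 were at 10039, 224 and 167. Of leukocyte and endothelial markers, CD3E at 176, VWF at 211 and PECAM1 at 274 also passed the filter. PTPRC, CD14 and CDH5 did not, at 56.5 to 102. Passing the filter thus does not by itself show that a marker is expressed. The median log2 ratio to control of 28 interferon-induced genes was 1.94 after si-WDR5-2 and -0.57 after si-WDR5-3. IFIT2, which binds viral RNA, was at 8.72 and 0.604 times the control, and IFITM1, a membrane protein that restricts virus entry, at 8.66 and 0.469 times.

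With si-WDR5-2, 8 of the 30 repair genes past the filter were at least 1.5-fold below the control and none was 1.5-fold above it. Of all 11501 genes past the filter, 3.35% were this much lower and 5.00% this much higher. The 8 genes were RAD51AP1, FANCI, UBE2T, RAD54B, EXO1, FANCG, RAD54L and FANCB. With si-WDR5-3 no repair gene passed 1.5-fold in either direction, where 1.57% of all genes were lower and 2.34% higher. The median log2 ratio of the 30 genes was -0.31 after si-WDR5-2 and -0.10 after si-WDR5-3, against -0.02 and -0.00 over all genes. Over all 34 genes, dim probe sets included, it was -0.24 and -0.08. The values of single genes spread widely, with an SD over the 30 genes of 0.36 and 0.19 on the log2 scale. Both comparisons share the control array. Where a gene is given with a pair of ratios to control, the first is for si-WDR5-2 and the second for si-WDR5-3. The same si-WDR5-2 array carried the high interferon-induced genes, and their part in the lower repair genes was not tested.

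**Figure D1:**
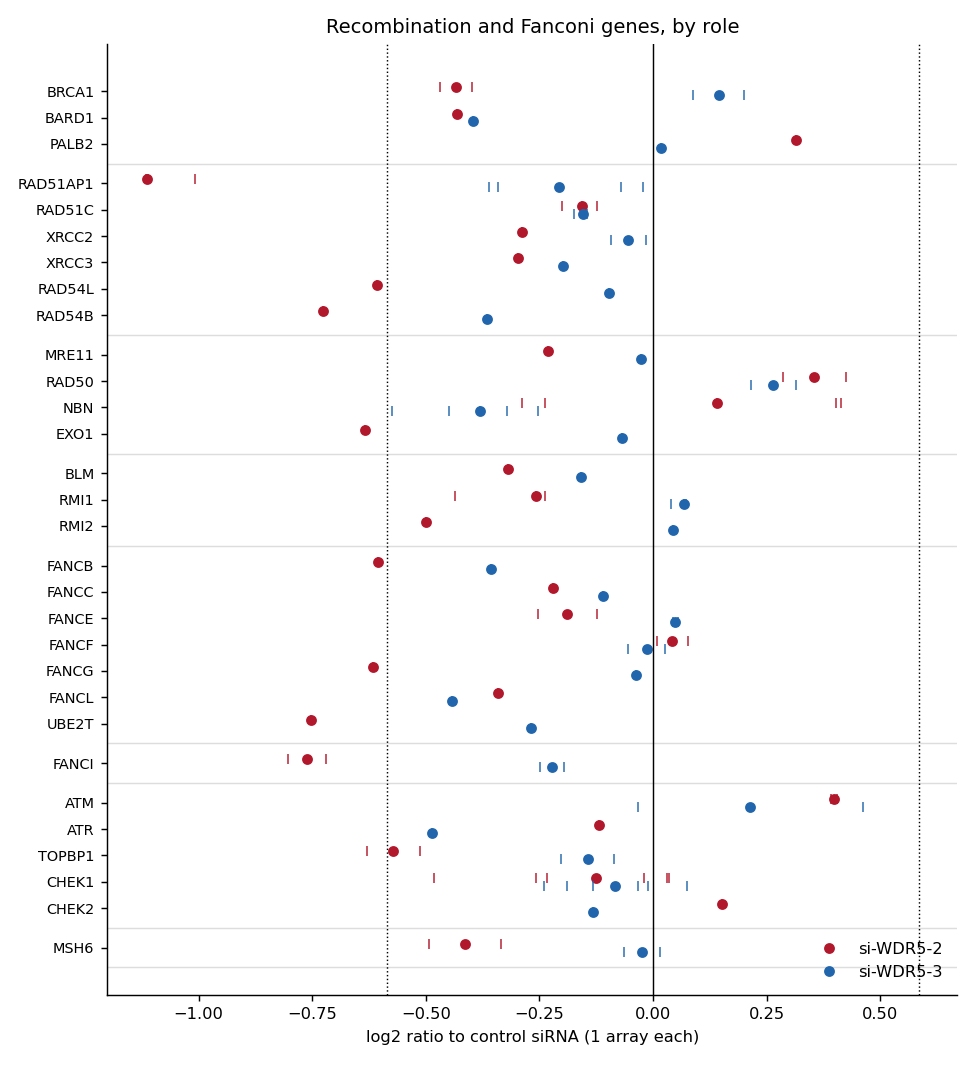
Log2 ratio to control siRNA of the 30 genes past the filter, grouped by role (vertical axis), with si-WDR5-2 in red and si-WDR5-3 in blue. Circles are gene medians, short bars single probe sets and dotted lines 1.5-fold. The 8 red circles at or left of the lower dotted line run from RAD51AP1 at -1.11 to FANCB at -0.60, and no blue circle reaches it.

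RAD51AP1, a DNA-binding protein of homologous recombination, was the lowest of the repair genes with si-WDR5-2. Its 4 probe sets read 726, 372, 733 and 352 with control siRNA, 336, 172, 338 and 175 with si-WDR5-2 and 715, 289.8, 698 and 278 with si-WDR5-3. All 4 were lower on the si-WDR5-2 array than on either other array. The ratios to control were between 0.461 and 0.498 with si-WDR5-2, a median of -1.11 ± 0.05 on the log2 scale (SD over 4 probe sets, a spread between probes, not between cultures). Among all genes, 0.426% had a lower ratio. With si-WDR5-3 the probe sets came in pairs, at 0.984 and 0.952 times for the pair whose names end in _s_at and at 0.779 and 0.789 times for the other two. In Affymetrix names this ending marks probes that also match other genes.

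The RAD54 translocases move along DNA and remodel it during recombination. RAD54B read 378 with control siRNA, 229 after si-WDR5-2 and 294 after si-WDR5-3. RAD54L read 321, 210.5 and 300.1. Both were lowest on the si-WDR5-2 array, at 0.605 and 0.656 times the control, and with si-WDR5-3 they were at 0.776 and 0.936 times. XRCC2, XRCC3 and RAD51C, which also act in recombination, lay closer to the control. In the order si-WDR5-2, si-WDR5-3, XRCC2 was at 0.819 and 0.963 times, XRCC3 at 0.814 and 0.872 times and RAD51C at 0.897 and 0.899 times. None of the 6 genes of this role was above the control on either array. The value of XRCC2 rests on 2 probe sets whose names end in _x_at, which Affymetrix gives to probes that resemble other sequences.

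UBE2T, the ubiquitin-conjugating enzyme of the Fanconi pathway, has 1 probe set, which read 1060.5 with control siRNA, 629 after si-WDR5-2 and 881 after si-WDR5-3. This is 0.593 and 0.830 times the control. FANCI, one of the proteins that receive ubiquitin, had 2 probe sets past the filter. They read 398 and 332 with control siRNA, 242 and 190.5 after si-WDR5-2 and 335 and 290.2 after si-WDR5-3. Its median log2 ratio was -0.76 ± 0.06 and -0.22 ± 0.04 (SD over 2 probe sets). For both genes the order was the same, with the control highest and si-WDR5-2 lowest. The third probe set of FANCI, below the filter at 125 in the control, was at 0.831 and 0.919 times.

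Members of the Fanconi core complex differed among themselves. FANCG read 349 with control siRNA, 228 after si-WDR5-2 and 341 after si-WDR5-3, so it was at 0.653 times the control with the first WDR5 siRNA and at 0.975 times with the second. FANCB read 201, 132 and 157, or 0.658 and 0.781 times, and on the si-WDR5-2 array it lay under the median intensity of the array. FANCL, the ubiquitin ligase subunit, read 868, 685 and 639. It was thus lower on both knockdown arrays, at 0.789 and 0.736 times, and it was the core gene with the lowest ratio with si-WDR5-3. FANCC was at 0.858 and 0.927 times, FANCE at 0.877 and 1.03 times and FANCF at 1.03 and 0.990 times. Of the 7 genes of this role past the filter, 3 were called lower with si-WDR5-2 and 6 lay below the control on each array.

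**Figure D2:**
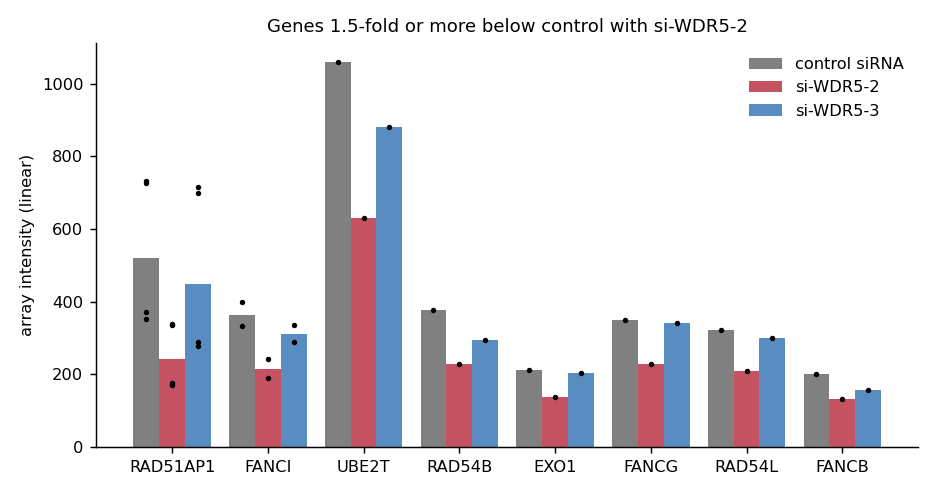
Linear array intensity (vertical axis) of the 8 genes at least 1.5-fold below control with si-WDR5-2, on the control (grey), si-WDR5-2 (red) and si-WDR5-3 (blue) arrays. Bars are medians on the log2 scale over the probe sets past the filter and points are single probe sets. The red bar is the lowest for each gene, which follows from how the genes were chosen, as none was called with si-WDR5-3. The blue bar lies below the grey bar for each gene, as for UBE2T at 1060.5 (grey), 629 (red) and 881 (blue).

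RAD51AP1 and UBE2T were the 2 genes called lower with si-WDR5-2 under every scaling, filter, offset and summary tried, so the 250 bases before their RefSeq starts are shown (GRCh38.p14). RAD51AP1 lies on the plus strand and UBE2T on the minus strand. The capitals mark the letters CCAAT and TTTGAA on either strand, which are known as a box bound by NF-Y and as the cell cycle homology region (CHR) of genes of the late cell cycle:
RAD51AP1, chr12:4538640-4538889: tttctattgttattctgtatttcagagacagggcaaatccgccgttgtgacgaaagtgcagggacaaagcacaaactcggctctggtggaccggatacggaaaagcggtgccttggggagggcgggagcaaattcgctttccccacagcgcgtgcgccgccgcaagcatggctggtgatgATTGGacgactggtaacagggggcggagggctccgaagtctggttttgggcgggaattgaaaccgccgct
UBE2T, chr1:202341937-202342186: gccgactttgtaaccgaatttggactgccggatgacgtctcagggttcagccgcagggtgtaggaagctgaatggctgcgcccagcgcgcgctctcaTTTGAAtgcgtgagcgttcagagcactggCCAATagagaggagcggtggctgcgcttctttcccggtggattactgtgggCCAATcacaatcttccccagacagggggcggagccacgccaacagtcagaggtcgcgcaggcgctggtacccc

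The letters ATTGG, which are CCAAT on the other strand, begin 70 bases before the start of RAD51AP1. CCAAT begins 124 and 73 bases before that of UBE2T, where TTTGAA begins 153 bases before it. In the RefSeq table, which runs from 250 bases before to 50 after the start, 33 of the 38 genes had a promoter, and 29 of these had a probe set. Of these 29, 26 passed the filter, and they are set against the promoters of 9368 genes past the filter. CCAAT stood in 14 of the 26 (53.8% against 42.9%) and TTTGAA in 3 (11.5% against 13.7%). The E-box CACGTG stood in 2 (7.69% against 12.7%) and the E2F letters TTTCCCGC or TTTGGCGC in 3 (11.5% against 4.61%). The E2F letters were those of XRCC2, FANCC and MSH6. Of the 8 genes lower with si-WDR5-2, 6 had a promoter in the table, of which 3 held CCAAT and none the E2F letters. Of the other repair genes past the filter, 11 of 20 held CCAAT and 3 the E2F letters. A match says only that these letters stand in the window, and no match says only that these exact letters do not.

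Among BRCA1 and its partners, ratios lay on both sides of the control. BRCA1, a ubiquitin ligase and scaffold of the repair, had 2 probe sets past the filter. They read 287 and 201 with control siRNA, 218 and 145 after si-WDR5-2 and 329.7 and 214 after si-WDR5-3. Both were lower with si-WDR5-2, at 0.759 and 0.723 times the control, and slightly above it with si-WDR5-3, at 1.15 and 1.06 times. Their names end in _x_at, and BRCA1 is known to have a partial pseudogene beside it, so these values may not be of BRCA1 alone. The 3 probe sets below the filter were at 0.875 to 0.995 times with si-WDR5-2. BARD1, the partner of BRCA1, read 234 with control siRNA, 174 after si-WDR5-2 and 178 after si-WDR5-3. It was lower by nearly the same share on both knockdown arrays, at 0.741 and 0.760 times. PALB2, which bridges BRCA1 and BRCA2, read 227, 283 and 230.01. Relative to the control this is 1.24 and 1.01 times.

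Among the genes of end resection, EXO1, an exonuclease that lengthens the resected strand, was the one called lower. It read 213 with control siRNA, 137 after si-WDR5-2 and 203 after si-WDR5-3, or 0.645 and 0.954 times the control. Its level with si-WDR5-2 was under the median of the array. MRE11, RAD50 and NBN form the complex that first binds a broken end, and their ratios lay on both sides of 1. MRE11 was at 0.852 and 0.983 times for its probe set past the filter, and its 4 dimmer ones were at 0.761 to 0.956 and at 1.03 to 1.16 times. RAD50 was above the control on both knockdown arrays. Its 2 probe sets read 382 and 393 with control siRNA, 513 and 479 after si-WDR5-2 and 444 and 488 after si-WDR5-3, a median of 1.28 and 1.20 times. Its remaining, dimmer probe set was at 1.11 and 0.996 times.

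NBN, the third subunit, had 5 probe sets that disagreed with si-WDR5-2. Their ratios to control ran from 0.819 to 1.33, with an SD of 0.34 on the log2 scale, the widest of the 14 repair genes with several probe sets. With si-WDR5-3 all 5 lay below the control, between 0.671 and 0.839 times. All 5 were higher with si-WDR5-2 than with si-WDR5-3, by 1.10 to 1.80 times. The brightest of them, at 1335 with control siRNA, was at 0.819 times with si-WDR5-2, whereas the median over the 5 was 1.10 times.

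**Figure D3:**
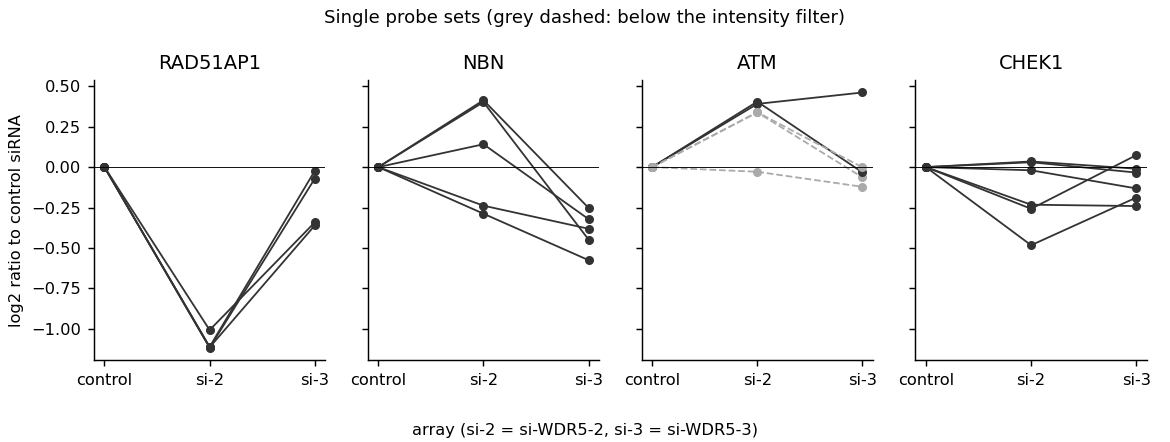
Log2 ratio to control siRNA (vertical axis) of each probe set of RAD51AP1, NBN, ATM and CHEK1 on the 3 arrays (horizontal axis), with a line joining the values of 1 probe set. The 4 probe sets of RAD51AP1 lie together with si-WDR5-2, those of NBN lie from 0.819 to 1.33 times the control there, and ATM has 1 of its probe sets high with si-WDR5-3, at 1.38 times.

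BLM, a helicase, works with RMI1 and RMI2 to take crossed strands apart without exchange. All 3 were below the control with si-WDR5-2. RMI2 read 288 with control siRNA, 204 after si-WDR5-2 and 297 after si-WDR5-3, or 0.708 and 1.03 times the control. BLM was at 0.802 and 0.896 times and RMI1 at 0.837 and 1.05 times. The 3 probe sets of RMI1 past the filter gave 0.740 to 0.848 times with si-WDR5-2, the lowest for the brightest one, whose name ends in _s_at. Its remaining, dimmer probe set was at 0.861 and 0.956 times.

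None of the 5 checkpoint genes past the filter was called on either array. TOPBP1, which activates ATR, had 2 probe sets, the brighter with a name ending in _s_at. They read 574 and 1129 with control siRNA, 403 and 729.7 after si-WDR5-2 and 541 and 982 after si-WDR5-3. The median of 0.673 times with si-WDR5-2 was the first value outside the limit of 0.667, while RAD54L at 0.656 and FANCB at 0.658 times were the last inside it. ATR read 383, 353 and 273. Relative to the control this is 0.920 and 0.713 times, and with si-WDR5-3 it was the lowest of the 30 repair genes. CHEK1, the kinase downstream of ATR, had 6 probe sets at 0.716 to 1.02 times after si-WDR5-2 and at 0.846 to 1.05 times after si-WDR5-3, with medians of 0.916 and 0.944 times.

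ATM was the repair gene with the highest ratio with si-WDR5-2. Its 2 probe sets past the filter read 319.9 and 170.5 with control siRNA, 419 and 226 after si-WDR5-2 and 440.4 and 167 after si-WDR5-3. Both were above the control after si-WDR5-2, at 1.31 and 1.32 times its level, but with si-WDR5-3 one was at 1.38 and the other at 0.978 times. Of the 3 dimmer probe sets, 2 were at 1.26 times with si-WDR5-2 and one at 0.980 times, and with si-WDR5-3 they lay between 0.919 and 0.999 times. CHEK2, a kinase downstream of ATM, was at 1.11 and 0.913 times, from 1 probe set past the filter whose name ends in _x_at. Its dimmer probe set lay on the other side of the control on both arrays, at 0.942 and 1.01 times.

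MSH6, a mismatch recognition protein, read 184 and 1065 with control siRNA, 146 and 758 after si-WDR5-2 and 186 and 1019 after si-WDR5-3. Both of its probe sets were lowest with si-WDR5-2, with a median of 0.751 times, and near the control with si-WDR5-3, at 0.983 times. Of the genes below the filter, TONSL, which acts at stalled forks, read 157, 130.4 and 149 and ATRIP, the partner of ATR, read 124, 113 and 108. The helicase BRIP1 read 82.4 and 81.0 with control siRNA and stayed between 74.7 and 78.5 on the other arrays. FANCM, a translocase that anchors the core complex, had 3 probe sets at 144, 146 and 76.7 with control siRNA. Their ratios were 0.876, 0.709 and 0.941 for si-WDR5-2 and 0.873, 0.802 and 0.951 for si-WDR5-3. All of these lay below the control on both knockdown arrays. The lowest value of the control array was 46.8. No dim probe set of any repair gene reached 1.5-fold in either direction. At such low intensity the absence of a call is no sign of an unchanged transcript.

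Set directly against si-WDR5-3, the si-WDR5-2 array had 1 repair gene at least 1.5-fold lower, RAD51AP1 at 0.536 times, and none this much higher. Over all genes 3.08% were lower and 3.53% higher. FANCG and BRCA1, both at 0.670 times, EXO1 at 0.676 times, RMI2 at 0.686 times and FANCI at 0.688 times came next and were not called. On the other side NBN was at 1.38 and ATR at 1.29 times. The median log2 ratio of the 30 genes was -0.22, against -0.02 over all genes. Of the 30 genes, 21 were lower with si-WDR5-2 than with si-WDR5-3, as were 6264 of all 11501 genes.

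Other genes of recombination and the Fanconi pathway, 47 past the filter, had a median log2 ratio of -0.16 after si-WDR5-2 and -0.03 after si-WDR5-3. With si-WDR5-2 6 of them were called lower and 1 higher, against 3.35% and 5.00% of all genes, and with si-WDR5-3 none was called. Without the filter 5 of 54 were lower and 1 higher with si-WDR5-2, and FIGNL1 had the lowest ratio. MMS22L, the partner of TONSL, was at 0.507 and 0.877 times and FIGNL1, an AAA ATPase, at 0.514 and 0.680 times. MUS81, a nuclease of branched DNA, was the one higher gene, at 1.62 and 1.303 times, followed by SLX4, a nuclease scaffold, at 1.34 and 1.09 times, which was not called.

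With si-WDR5-2 the other repair pathways had medians nearer to that of all genes. Of 14 end joining genes none was called lower with si-WDR5-2, and XRCC4, a partner of DNA ligase IV, was at 1.91 and 1.96 times the control. PARP3 was at 1.68 and 1.05 times, while PRKDC, the catalytic subunit of DNA-PK, and XRCC6 had the lowest ratios with si-WDR5-2 at 0.688 and 0.721 times. Without the filter 1 was called higher with si-WDR5-2, where 459 of all 18155 genes were higher and 283 lower. The median of the 14 was -0.11 and -0.07 on the log2 scale. The 29 excision repair genes had medians of -0.02 and -0.08, with 3 called lower and 2 higher with si-WDR5-2, or 3 and 0 without the filter. Their extremes were the flap endonuclease FEN1 at 0.478 and 0.802 times, the centrin CETN2 at 0.597 and 1.18 times, the damage sensor XPC at 1.72 and 1.53 times and the glycosylase TDG at 1.57 and 0.743 times. XPC and TDG each have 1 probe set past the filter, and without the filter XPC was at 1.46 and 1.33 times. The 3 mismatch repair genes MSH3, MLH3 and PMS1 lay between 0.981 and 1.14 times with si-WDR5-2.

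The replication fork genes were lower still on the si-WDR5-2 array. Of 38 such genes 22 were called lower after si-WDR5-2 and 1 after si-WDR5-3, and none was called higher. Their median log2 ratio was -0.67 and -0.05. Without the filter 14 of the 38 were called lower with si-WDR5-2, and the median was -0.45. Over all 18155 genes without the filter 283 were this much lower, and the median was -0.03. TYMS, which makes thymidylate, was at 0.475 and 0.979 times, and RRM1, of ribonucleotide reductase, at 0.492 and 0.799 times. The highest ratios with si-WDR5-2 were those of TIPIN at 1.19 and RFC1 at 0.941 times. The repair genes lay between the replication genes and all genes with si-WDR5-2, a description of 3 arrays with no test.

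**Figure D4:**
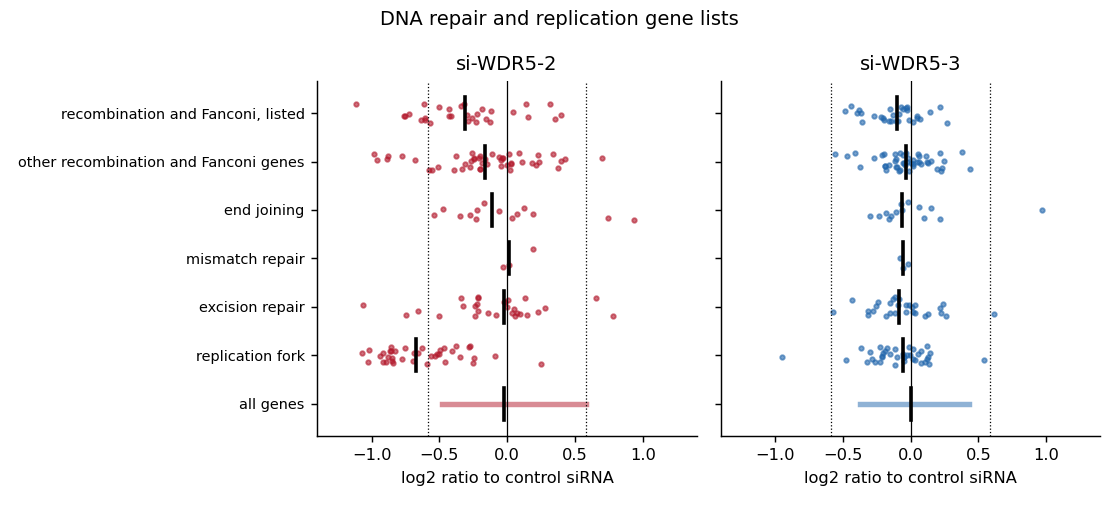
Log2 ratio to control siRNA (horizontal axis) of each gene past the filter in 6 lists, with si-WDR5-2 on the left and si-WDR5-3 on the right. Points are genes, black bars medians, dotted lines 1.5-fold and the thick line of all genes spans their 5th to 95th percentile. With si-WDR5-2 the medians run from -0.67 for replication fork genes over -0.31 for the listed recombination and Fanconi genes to -0.02 for all genes, and with si-WDR5-3 those 3 lie between -0.10 and -0.00.

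The only test that the arrays allow compares the control with both siRNA arrays joined as 1 knockdown group. The spread it uses is that between the 2 siRNAs, with 1 residual degree of freedom. With limma and Benjamini-Hochberg adjustment over 24647 probe sets, 0 of the 55 probe sets of repair genes had an adjusted p under 0.05, as did 0 of all probe sets (0%). At an unadjusted p under 0.05, 2 of the 55 were lower, those of BARD1 and FANCB, and none was higher, against 1.24% lower and 3.21% higher over all probe sets. Without the trend in eBayes 1 was lower and 1 higher, and with the filter at the 75th percentile none was lower. RAD51AP1, UBE2T and FANCI did not pass. For a gene low mainly with si-WDR5-2, the difference between the siRNAs is itself the spread used. The test could hardly call such a gene, so its result for them decides nothing.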

How the data were processed

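UM-UC-3 RNA was measured on 3 Affymetrix PrimeView arrays. The authors deposited 1 table of linear intensities, made with GCOS 1.4 per the labels and the methods. How background, probe summary and normalization were handled is not given in the sources used here. Array medians are alike, so no scaling was added. In the platform annotation 45064 probe sets have 1 gene symbol, 1756 several and 2473 none, and those with 1 symbol name a gene.

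Values were taken to log2 with no offset, and the 24647 probe sets whose mean log2 value reached the median of all were kept. Each gene has the median of the log2 ratios of these probe sets, and it was called at 1.5-fold. The spread given with a gene is the SD over its probe sets, which is not an error between cultures. It exists for the 14 listed genes with several probe sets past the filter (median 0.07 and 0.06 for the 2 siRNAs). Precision is limited by the number of arrays. As the test, limma 3.58.1 (R 4.3.3, lmFit and eBayes with a trend) was fitted across all kept probe sets. Both steps were tested on simulated data with the same change in both siRNA arrays. That does not show what limma can detect where the 2 siRNAs differ, as they do here. Alternatives were median centring, quantile normalization, filters at the 25th and 75th percentile or none, an offset of 84.8, the brightest probe set, the mean over probe sets, stricter and looser folds and eBayes without the trend. All listed genes are named, and of the other repair and replication lists the 2 lowest and 2 highest genes with si-WDR5-2. Members and lists were chosen with earlier results of these data known. Promoters are from RefSeq (GRCh38.p14), and coordinates are given for these only.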

Additional observations from a re-analysis of the deposited data

How the results depend on the processing

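Median centring, no filter, a filter at the 25th percentile and the mean over probe sets kept all counts of the listed genes within 1.5 times and all medians within the spread over probe sets. For si-WDR5-2 against control, the 8 lower genes became 3 of 15 with a filter at the 75th percentile, 2 with an offset before log2 (RAD51AP1 and UBE2T), 1 at 2-fold and 14 at a fold of 5/4, where 2 were higher. An offset draws all ratios towards 1 by construction. The median log2 ratio was -0.23 with the filter at the 75th percentile and -0.21 with the offset. TOPBP1 joined the lower genes under quantile normalization and with the brightest probe set, which gave 9 each. For si-WDR5-3 against control, 6 genes were lower at a fold of 5/4. For si-WDR5-2 against si-WDR5-3, the count of 1 lower gene was 2 under quantile normalization (with FANCG) and with the brightest probe set (with BRCA1), 0 at 2-fold and 11 at 5/4, where 2 were higher, and the median was -0.070 with the filter at the 75th percentile. In limma 0 probe sets of these genes had an adjusted p under 0.05 under any alternative. Leaving out either siRNA array leaves limma no residual degree of freedom. No paired analysis was possible because each condition has 1 array. Dim probe sets limit FANCM, BRIP1, ATRIP and TONSL, for which these arrays cannot show an unchanged level.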
